A study of Mus musculus with 12 samples.

Results

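Mouse mitochondrial DNA (mtDNA) carries 37 annotated genes, whose symbols start with mt-: 13 for proteins, 2 for ribosomal RNAs (rRNAs) and 22 for transfer RNAs (tRNAs). Every gene of the deposited table with such a symbol was taken, which gave 13 of 34866 genes, all of them mRNAs, and the 2 rRNAs and 22 tRNAs were not analysed here. RNA with a poly(A) tail was sequenced from mouse embryonic fibroblasts (MEFs) immortalized in culture, with 12 cultures, 3 in each of 4 groups: male wild-type (WT), male Sirt3 knock-out (KO), female WT and female KO. Sirt3 is an NAD-dependent deacetylase of the mitochondrial matrix. WT cells came from 129S1/SvImJ embryos and KO cells from a Sirt3 KO stock whose strain is not given in the sources used here. All lines came from single embryos of 13 days, carried a plasmid with the SV40 T-antigen and were used at passage 6, with RNA taken 48 h after seeding. The number of lines per group is not stated, so genotype, sex and cell line cannot be told apart, and p-values measure only the spread between cultures, which may be technical.

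Values are in TPM, the estimated share of each gene among all transcripts after correction for transcript length, and read totals are not given, so depth is unknown. Sirt3 itself was not lower in the libraries labelled KO. Its level in TPM was 6.59, 7.17 and 9.07 for male WT, 8.88, 10.9 and 11 for male KO, 7.40, 7.60 and 8.69 in female WT and 7.57, 9.06 and 8.19 in female KO. A total per gene cannot show whether the transcript is intact, and KO means a library labelled KO throughout. Fibroblast markers were present, with 10 of 11 at a mean of 1 TPM or more and a sum between 8194 and 13093 TPM. Median-of-ratios size factors of the 12 libraries ran from 0.966 to 1.02.

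The mitochondrial genome is transcribed from both strands into long precursors, and cutting out the tRNAs that lie between the coding regions releases most of the mRNAs. Its proteins are core subunits of respiratory complexes I, III and IV and of the ATP synthase (complex V), where they join subunits encoded in the nucleus. Since the precursors are shared, the levels of single mRNAs also depend on processing, poly(A) tailing and decay, for which the cell imports nuclear-encoded proteins.

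Some mitochondrial mRNAs share bases with each other. The coding regions of mt-Atp8 and mt-Atp6 overlap by 43 bases and lie on a common mRNA, as do those of mt-Nd4l and mt-Nd4, which overlap by 7 bases. Only a read that lies within the shared bases fits both genes equally well. The sequences are shown because both comparisons of neighbours below rest on these pairs, with the shared bases in capitals (plus strand, GENCODE M21 transcripts, GRCm38).
mt-Atp8 end, chrM:7902-7969: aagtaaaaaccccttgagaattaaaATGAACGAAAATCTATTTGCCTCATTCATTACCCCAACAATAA
mt-Atp6 start, chrM:7927-7994: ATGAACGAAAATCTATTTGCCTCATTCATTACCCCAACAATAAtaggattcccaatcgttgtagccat
mt-Nd4l end, chrM:10142-10173: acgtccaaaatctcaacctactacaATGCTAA
mt-Nd4 start, chrM:10167-10198: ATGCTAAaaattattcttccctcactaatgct

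Long stretches of some mitochondrial mRNAs, or nearly all their bases, are also found in the nuclear genome. The shared part was smaller for mt-Co1 (483 of 1545 bases) and mt-Nd4 (876 of 1378). A block on the minus strand of chromosome 1 of GRCm38, from 24611535 to 24616197, holds 7 annotated unprocessed pseudogenes that match mitochondrial genes over 90% or more of their length at an identity of 99.7% or more. They copy mt-Co1 (its end, Gm29216), mt-Co2 (Gm28661), mt-Atp6 (Gm10925), mt-Co3 (Gm28437), mt-Nd3 (Gm28438), mt-Nd4l (Gm10222) and the first part of mt-Nd4 (Gm28439). The pairs below show how little tells a copy, read on the minus strand, from its mRNA. Capitals mark bases that differ between the members of a pair or that lie past the annotated end of the other member. The bases of chromosome 1 past that end were not examined.
mt-Co2, chrM:7637-7696: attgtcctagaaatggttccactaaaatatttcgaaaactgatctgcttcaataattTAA
Gm28661, chr1:24614885-24614941: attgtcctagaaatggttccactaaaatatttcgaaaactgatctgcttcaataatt
mt-Co1, chrM:6390-6422: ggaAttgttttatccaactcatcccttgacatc
Gm29216, chr1:24616156-24616188: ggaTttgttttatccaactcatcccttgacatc
mt-Nd3, chrM:9459-9490: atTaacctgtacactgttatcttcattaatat
Gm28438, chr1:24613088-24613119: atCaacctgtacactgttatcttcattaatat

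Counted from the 5′ end of the mitochondrial mRNA, with its base first, the only differences within the aligned bases were A1066T in mt-Co1 (483 bases aligned) and T3C in mt-Nd3 (345 bases). The 681 bases of Gm28661, 678 of Gm10925 and 783 of Gm28437 were identical to mt-Co2, mt-Atp6 and mt-Co3. A read that lies within the identical bases therefore fits the mitochondrial mRNA and the nuclear copy equally well. Another 9 annotated copies, with an identity of 90.7% to 97.6%, stood at 2.06 TPM or less in every library and are not used further.

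The levels of the 13 mRNAs, in TPM and so per length, ran from 577 to 6379 over all libraries. Mt-Co1, the catalytic subunit of cytochrome c oxidase, was highest in all 12 libraries, with 5536 to 6379 TPM. Mt-Nd4l (3613 to 4867), mt-Co3 (3103 to 4751), mt-Nd1 (3214 to 4062) and mt-Atp6 (3338 to 4028) came next, and mt-Atp8 was lowest by its mean, with 577 to 984 TPM. Summed, the 13 mRNAs took 3.14% to 3.82% of all TPM, and 4.09% to 5.19% with the nuclear copies. The rRNAs are left out of these shares.

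Neighbours in the order of means did not all hold their places. Mt-Nd4l exceeded mt-Co3 in 7 of 12 libraries, mt-Nd1 exceeded mt-Atp6 in 8, mt-Co2 exceeded mt-Nd6 in 7, mt-Nd6 exceeded mt-Nd4 in 7 and mt-Nd5 exceeded mt-Nd3 in 8. The steps from mt-Co1 to mt-Nd4l, from mt-Atp6 to mt-Cytb, from mt-Cytb to mt-Co2, from mt-Nd4 to mt-Nd2 and from mt-Nd2 to mt-Nd5 held in 12 of 12 libraries. Mt-Co1 was also the steadiest mRNA, with a pooled SD within groups of 0.046 on the log2 scale, against 0.246 for mt-Co2, 0.229 for mt-Nd6 and 0.220 for mt-Nd3. Mt-Nd6 is the only mRNA encoded on the opposite strand to the other 12, and since no strand setting is stated, its reads cannot be told apart from those of the precursor on the other strand.

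**Figure D1:**
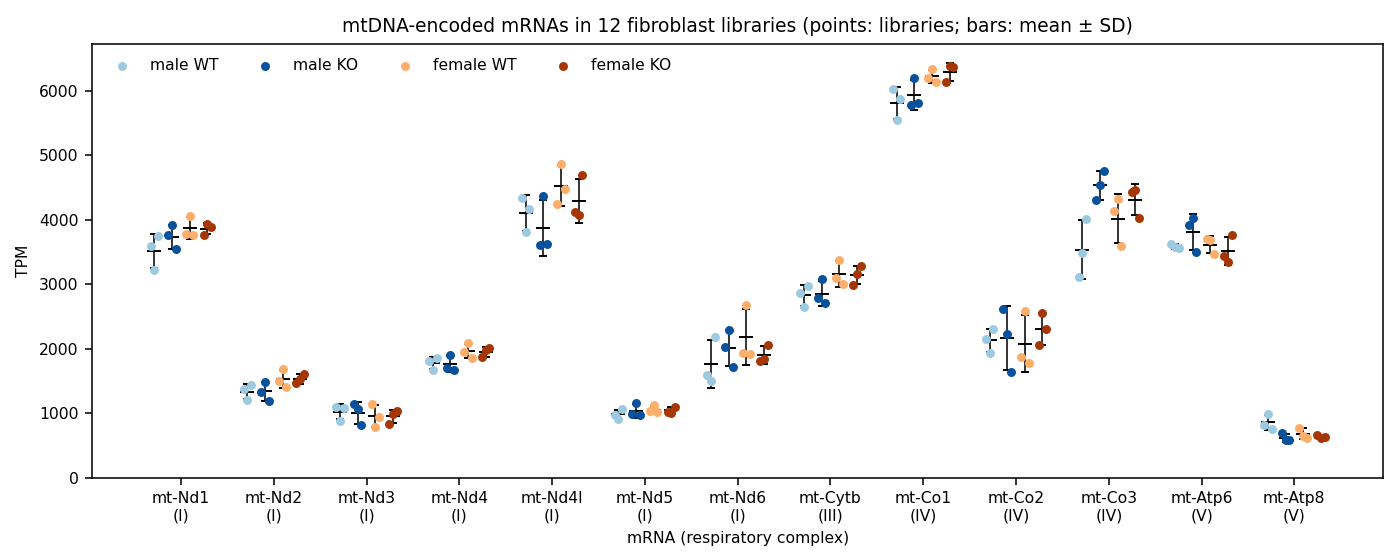
TPM (vertical axis) of the 13 mtDNA-encoded mRNAs (horizontal axis, with the complex each belongs to) in 12 libraries; points are libraries, and bars are the mean and SD of the 3 libraries of a group. In all groups mt-Co1 stands highest, between 5536 and 6379 TPM, and the male WT and male KO points separate only for mt-Co3 and mt-Atp8.

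How far these levels were split with the nuclear copies was read from the deposited values. Of the 7 near-identical copies, 5 had between 208 and 5591 TPM, and Gm28439 and Gm10222 were at 0 in every library. Gm28661 stood at 4396 to 5591 TPM, above mt-Co2 itself at 1644 to 2621 in every library. Of the summed TPM of each pair, the mitochondrial gene was given 24.5% to 35.3% for mt-Co2, 30.8% to 44.8% for mt-Nd3, 53.4% to 74.1% for mt-Atp6, 62.7% to 73.2% for mt-Co1 and 65.0% to 95.5% for mt-Co3.

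The split was most uneven for mt-Co3. Its copy Gm28437 had 1668, 714 and 701 TPM in the male WT libraries, 1013, 740 and 289 in male KO, 1011, 723 and 1302 in female WT and 208, 609 and 1099 in female KO, a range of 8.02-fold. Replicate 1 of male WT had both the highest Gm28437 and the lowest mt-Co3 of all libraries. Adding the copy lowered the pooled SD within groups from 0.246 to 0.098 for mt-Co2, from 0.220 to 0.147 for mt-Nd3 and from 0.128 to 0.070 for mt-Co3 (log2 scale), and raised it from 0.075 to 0.102 for mt-Atp6 and from 0.046 to 0.103 for mt-Co1. The order of the 2 highest depended on how the copy was added. With plain sums mt-Co1 stayed first, at a mean of 8977 TPM against 7307 for mt-Co2, and was higher in 12 of 12 libraries. With each copy added in proportion to its length, a choice made after seeing the data, mt-Co2 was first, at 7284 TPM against 6990 for mt-Co1, also in 12 of 12. Gm29216 has 492 bases against 1545 for mt-Co1, whose pooled SD was 0.066 when its copy was added by length.

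**Figure D2:**
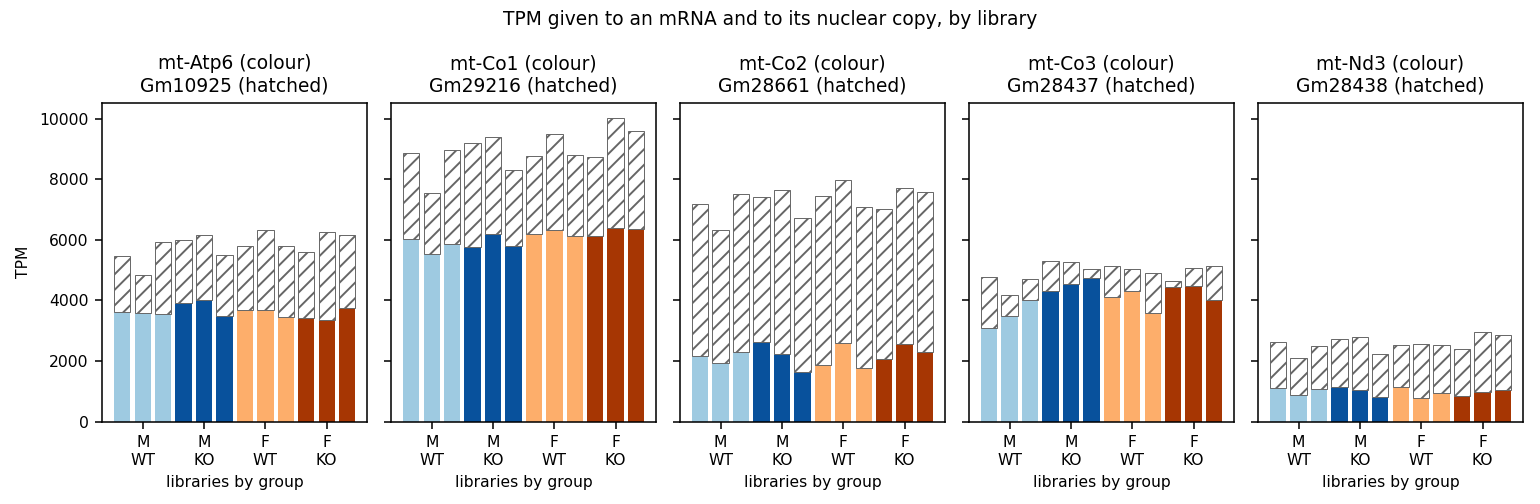
Stacked TPM (vertical axis) of 5 mRNAs (coloured by group) and of their near-identical nuclear copies (hatched), with 1 bar per library and the 3 libraries of a group side by side (M, male; F, female). The hatched share is largest for mt-Co2, of whose summed TPM the mitochondrial gene was given 24.5% to 35.3%, and varies most between libraries for mt-Co3.

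The libraries labelled male KO were compared first with those of male WT. Of the 13 mRNAs, 2 passed the test, mt-Co3, which was higher, and mt-Atp8, which was lower. Over all 12504 genes that averaged 1 TPM or more, 21.6% passed the same test (limma on log2(TPM+1), Benjamini-Hochberg adjusted p under 0.05), 10.7% higher and 10.9% lower, so the count among the 13 was not above the background. The same 2 were the only ones of 13 whose male groups did not overlap, against 40.0% of all genes. The median change of the 13 was 0.013 on the log2 scale, against -0.015 over all genes, and their median absolute change was 0.071, against 0.166.

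Mt-Co3, the third core subunit of cytochrome c oxidase, had 3103, 3481 and 4016 TPM in the male WT libraries and 4305, 4543 and 4751 TPM in the male KO libraries. All 3 male KO libraries were above all 3 male WT libraries. Its log2 fold change was 0.37 (standard error 0.090, 95% interval 0.15 to 0.58, limma adjusted p = 0.0274). Counted together with its nuclear copy, mt-Co3 had 4770, 4195 and 4717 TPM in the male WT libraries and 5318, 5283 and 5040 TPM in the male KO libraries. The groups again did not overlap, and the log2 fold change was 0.19 (standard error 0.053, limma adjusted p = 0.0390, against 21.7% of all genes that passed in that fit). The call was lost in 8 of 18 alternatives, over which the limma adjusted p ran from 0.00795 to 0.127. They were the fit without a filter on low values (0.127), that without the mean-variance trend (0.0671), that relative to the 13 mRNAs (0.0627) and those without replicate 1 or 2 of male WT or any 1 of the 3 male KO libraries (0.0515 to 0.0925).

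Mt-Atp8, a small subunit of the ATP synthase, had 822, 984 and 761 TPM in the male WT libraries and 689, 579 and 577 TPM in the male KO libraries. Here too the groups did not overlap, and the log2 fold change was -0.47 (standard error 0.11, 95% interval -0.73 to -0.22, limma adjusted p = 0.0213). No nuclear copy of it was found among the deposited genes, where aligned stretches under 60 bases were left out. Adding copies therefore left it at -0.47. Its last 43 bases, which open mt-Atp6, also lie in Gm10925, and that copy was not added to mt-Atp8. Replicate 2 of male WT had both the highest mt-Atp8 and the lowest Gm10925 (1251 TPM) of all libraries. The part of these bases in the difference was not tested. At 204 bases mt-Atp8 is the shortest of the 13. The TPM of so short a transcript depends on how the fragment length was modelled, which was not examined here. The call was lost in 5 of 18 alternatives, over which the limma adjusted p ran from 0.00615 to 0.0990. They were the fits without a filter on low values (0.0990), without the mean-variance trend (0.0509), without replicate 1 of male WT and without replicate 2 or 3 of male KO (0.0525 to 0.0745).

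The mRNA partner of mt-Atp8 did not show the same difference. Mt-Atp6, the proton channel subunit of the ATP synthase, had 3628, 3576 and 3553 TPM in the male WT libraries and 3910, 4028 and 3498 TPM in the male KO libraries, with a log2 fold change of 0.086 (95% interval -0.037 to 0.21, limma adjusted p = 0.290), and it passed without replicate 3 of male KO (0.15, limma adjusted p = 0.0314). The ratio of mt-Atp8 to mt-Atp6 was 0.239 ± 0.032 in male WT and 0.162 ± 0.017 in male KO, against 0.188 ± 0.019 in female WT and 0.182 ± 0.011 in female KO (SD, n = 3 each). With Gm10925 added to mt-Atp6, it was 0.161 ± 0.039 in male WT and 0.105 ± 0.011 in male KO. In female WT and female KO it was then 0.114 ± 0.017 and 0.106 ± 0.0092. The other overlapping pair, mt-Nd4l and mt-Nd4, kept a ratio between 2.06 and 2.40 in all 12 libraries, with means of 2.30 in male WT and 2.19 in male KO.

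Of the other mRNAs, the complex I subunits mt-Nd1 to mt-Nd6 with mt-Nd4l had log2 fold changes in males from -0.088 (mt-Nd4l) to 0.20 (mt-Nd6), and none of the 7 passed. The complex III subunit mt-Cytb changed by 0.013 (95% interval -0.13 to 0.16, limma adjusted p = 0.906). Mt-Co1 changed by 0.029 (95% interval -0.071 to 0.13, limma adjusted p = 0.677). The interval was much wider for mt-Co2, from -0.38 to 0.38 around a change of -0.00013, and narrowed to -0.12 to 0.23 around 0.054 with Gm28661 added. None of the 5 copies passed in this comparison.

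In the same libraries the markers of some other cell types differed. The 5 epithelial markers, 3 of them at a mean of 1 TPM or more, summed to 76.0 to 77.8 TPM in male WT and 7.90 to 8.78 in male KO, and the 3 mesothelial markers, 2 of them at that level, to 27.9 to 33 and 4.77 to 7.49. The 11 fibroblast markers summed to 10251 to 11369 TPM in male WT and 12390 to 13093 in male KO. No epithelial or mesothelial marker was at 0 in every library. Their part in the male differences was not tested, and in bulk RNA fewer cells of a type and less RNA per cell cannot be told apart.

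In female cells 0 of 13 mRNAs passed, against 11.5% of all genes. An unadjusted limma p under 0.05 was seen for 0, and all genes were not counted at that threshold. None of the 13 was free of overlap between the female groups, against 33.6% of all genes. Mt-Co3 had 4126, 4321 and 3591 TPM in the female WT libraries and 4430, 4464 and 4028 TPM in the female KO libraries. Mt-Atp8 had 775, 645 and 616 TPM against 653, 619 and 636 TPM. For both mRNAs the groups overlapped. The log2 fold change of mt-Co3 was 0.11 (95% interval -0.071 to 0.28, limma adjusted p = 0.413) and became -0.024 with its copy added, and that of mt-Atp8 was -0.087 (95% interval -0.28 to 0.11, limma adjusted p = 0.547).

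The female changes were small where the replicates were close. The median absolute log2 change of the 13 was 0.019, against 0.130 over all genes. The intervals of mt-Co1 (-0.042 to 0.075) and mt-Nd1 (-0.088 to 0.083) exclude changes above 0.1 in size in the deposited TPM. That of mt-Co1 ran from -0.070 to 0.20 once its copy was added as a plain sum. The intervals of mt-Nd6 (-0.49 to 0.13) and mt-Co2 (-0.19 to 0.52) include such changes. Epithelial markers summed to 19.7 to 22.7 TPM in female WT and 7.40 to 10.2 in female KO. The 3 muscle markers, of which only Des was at a mean of 1 TPM or more, summed to 5.71 to 6.60 and 0 to 0.344 TPM. Their part in the female values was not tested.

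**Figure D3:**
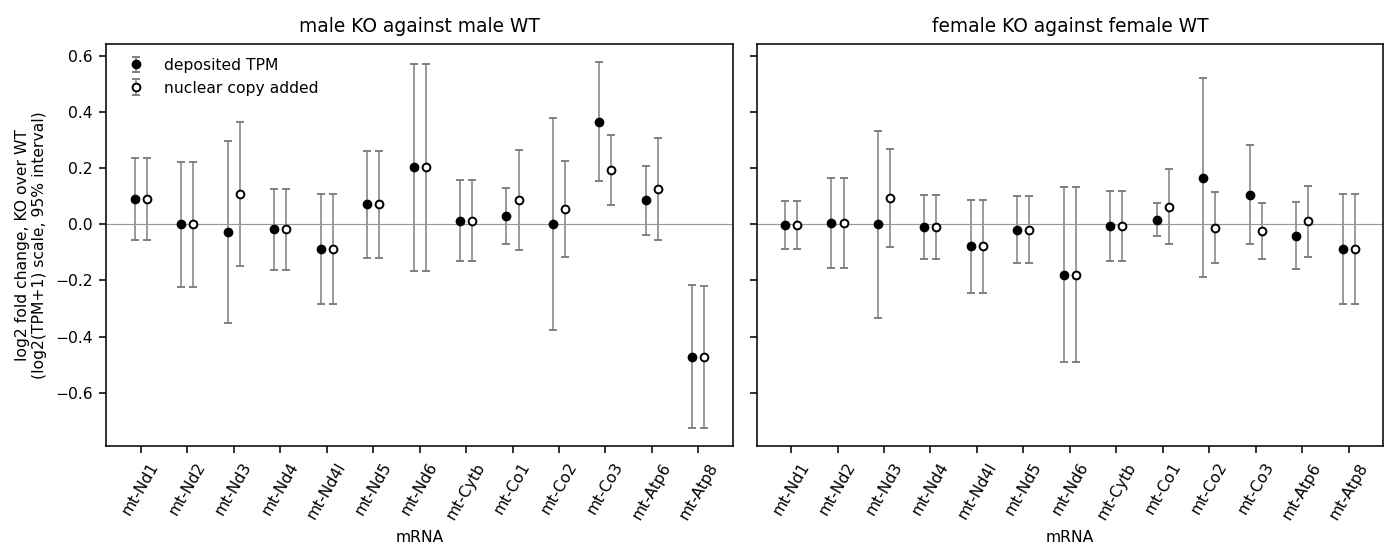
Log2 fold change of KO over WT on the log2(TPM+1) scale (vertical axis) of each mRNA (horizontal axis) in males (left) and females (right), with 95% limma intervals; filled points use the deposited TPM and open points the TPM with the nuclear copy added. The intervals of mt-Co3 (0.37, or 0.19 with its copy) and mt-Atp8 (-0.47) in males exclude 0, and no interval in females does.

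Whether the change differed between the sexes was tested by the interaction of sex and genotype over all 12 libraries. Again 0 of 13 mRNAs passed, against 13.0% of all genes. Only 1 had an unadjusted limma p under 0.05, a threshold at which all genes were not counted. That was mt-Atp8, with a difference in log2 fold change of -0.39 (standard error 0.15, limma adjusted p = 0.126), which passed without replicate 1 of female WT (-0.48, limma adjusted p = 0.0476, with a range of 0.0476 to 0.252 over the alternatives). The difference for mt-Co3 was 0.26 (standard error 0.13, limma adjusted p = 0.231), and 0.22 when the copy was added (standard error 0.072, limma adjusted p = 0.0727). The male and female changes of these 2 mRNAs were thus not shown to differ.

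Male and female cells of the same genotype were compared next. In WT cells 10 of 13 mRNAs were lower in males by value (9 with median-of-ratios scaling, 8 with quantile normalization), with a median log2 difference of -0.14, against -0.018 over all genes, and in KO cells 9 of 13, with a median of -0.053 against -0.013. None of the 13 passed limma in WT cells (12.8% of all genes did) or in KO cells (16.6%). An unadjusted limma p under 0.05 was seen for 4 in each, and all genes were not counted at that threshold. Without a filter on low values it was seen for 0 in each. In WT cells 4 of 13 did not overlap between the sexes, all lower in males (mt-Nd1, mt-Nd4, mt-Cytb and mt-Co1), against 33.4% of all genes in either direction. With the copies added mt-Co1 overlapped and mt-Co3 did not, so that 4 again stood apart. In KO cells 0 of 13 did not overlap, against 35.4%.

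Mt-Cytb, the heme-binding core of complex III, had 2855, 2646 and 2976 TPM in the male WT libraries and 3090, 3378 and 3001 TPM in the female WT libraries, a log2 difference of -0.16 (95% interval -0.30 to -0.021, limma adjusted p = 0.131). The WT groups did not overlap, and the difference passed with quantile normalization (-0.24, limma adjusted p = 0.0115). In KO cells it had 2777, 3080 and 2702 TPM in males and 2992, 3157 and 3280 TPM in females, with overlap, a log2 difference of -0.14 (limma adjusted p = 0.143). Mt-Co1 differed by -0.099 in WT (limma adjusted p = 0.127) and -0.087 in KO cells (limma adjusted p = 0.136), and mt-Nd4 by -0.14 (limma adjusted p = 0.147) and -0.15 (limma adjusted p = 0.120). Replicate 2 of male KO had the highest male KO level of mt-Nd2, mt-Nd4, mt-Cytb and mt-Co1. Without it, mt-Nd2 (-0.28), mt-Nd4 (-0.21), mt-Cytb (-0.20) and mt-Co1 (-0.12) passed in KO cells, with limma adjusted p between 0.0227 and 0.0406. Mt-Atp8 went the other way in WT cells, by 0.33 (limma adjusted p = 0.117), in a comparison that shares its male WT libraries with that of male KO and male WT.

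Markers of other cell types differed between the WT sexes too. Their mean sums in male and female WT were 77.1 and 21.6 TPM for epithelial, 30.6 and 15.97 for mesothelial, 0.246 and 6.28 for muscle, 1.92 and 5.25 for endothelial and 10881 and 8289 for fibroblast markers. In male and female KO the epithelial sums were 8.25 and 8.43 TPM, the mesothelial 6.14 and 6.11 and the fibroblast 12730 and 10586. Their part in the sex differences was not tested.

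Sums by complex and their ratios to the nuclear-encoded subunits were compared as single values, by exact permutation of genotype within sex and of sex within genotype (two-sided, 400 assignments, smallest p 0.005), with Benjamini-Hochberg adjustment over the 18 tests. The 13 mRNAs summed to 33225 ± 1819 TPM in male WT, 34650.3 ± 2155 in male KO, 35824 ± 2174 in female WT and 35717 ± 1113 in female KO (SD, n = 3 each). The difference between KO and WT, averaged over the sexes, was 0.029 on the log2 scale (exact p = 0.515, adjusted p = 0.734). The 3 complex IV mRNAs differed most, by 0.10 (exact p = 0.040, adjusted p = 0.144), with 0.14 in males and 0.070 in females, and by 0.059 with the copies added (exact p = 0.290). The complex I sum differed by -0.012, that of complex III by 0.0038 and that of complex V by -0.027, all with an adjusted p of 0.734 or more.

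Between the sexes, the lowest p of the 18 tests were those of ratios and of the complex III sum. The ratio of mtDNA-encoded to nuclear-encoded TPM in complex I (7 against 36 genes) was 2.79 ± 0.226 in male WT, 2.82 ± 0.278 in male KO, 3.31 ± 0.258 in female WT and 3.10 ± 0.204 in female KO, a log2 difference of -0.19 between males and females (exact p = 0.025, adjusted p = 0.113). In complex III (1 against 9 genes) the difference was -0.20 (exact p = 0.010, adjusted p = 0.113) and in complex IV (3 against 10 genes) -0.11 (exact p = 0.025, adjusted p = 0.113). None of the 18 passed, and without replicate 2 of male KO the ratios of complexes I and III and the sum of complex III did, each at an adjusted p of 0.030. The complex V ratio, 0.532 to 0.548 in the means of WT and 0.520 to 0.543 in those of KO, turned from 0.010 to -0.12 between males and females when Gm10925 was added to mt-Atp6.

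**Figure D4:**
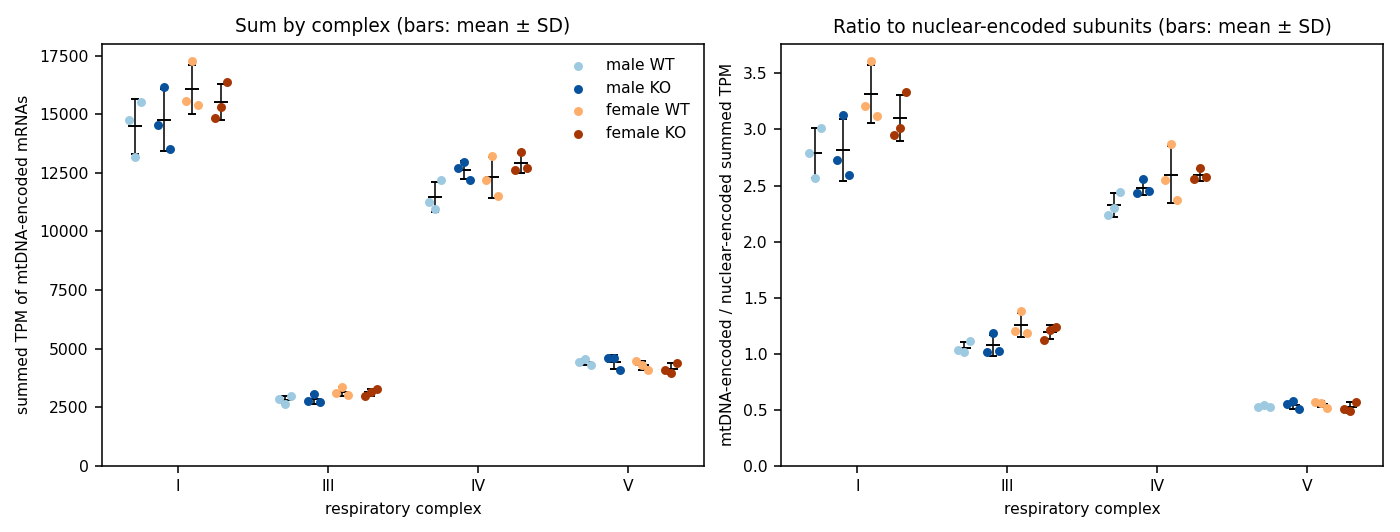
Summed TPM of the mtDNA-encoded mRNAs of each respiratory complex (left) and the ratio of that sum to the summed TPM of the nuclear-encoded subunits of the same complex (right); points are libraries, bars the mean and SD of 3. Female points sit higher on average for complexes I, III and IV, where the ratio differed by -0.19, -0.20 and -0.11 on the log2 scale between males and females.

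Of 70 tested subunits of complexes I, III, IV and V, 4 were higher and 2 lower in male KO, and 5 were higher and 1 lower in female KO. Over all genes 10.7% were higher and 10.9% lower in males, and 5.63% and 5.84% in females. Between male and female WT cells 8 were higher in males and 0 lower, and between male and female KO cells 7 and 0. Over all genes 6.26% and 8.17% were higher, and 6.56% and 8.39% lower. Leaving out single libraries moved the counts of subunits. The male KO count of 6 became 3 without replicate 1 or 2 of male KO, the female count of 6 became 0 to 3 without any 1 library other than replicate 3 of female WT, the 8 of WT became 3 to 5 without any 1 library other than replicate 2 of male WT, and the 7 of KO became 2 to 4 without any 1. Relative to the mean of the 13 mRNAs, the counts were 0 and 1 for male and female KO, and 4 and 0 between the sexes in WT and KO. Without the mean-variance trend they were 1 and 0, and 3 and 2, in the same order. Without a filter on low values the female count was 1, and those between the sexes were 3 in WT and 4 in KO.

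The proteins that copy, transcribe and process mtDNA are all encoded in the nucleus, and 68 of the 70 listed genes were tested. In males 3 were higher and 7 lower in KO, and in females 2 were higher and 1 lower (5.63% of all genes were higher and 5.84% lower there). In males 10.7% of all genes were higher and 10.9% lower. The male count fell to 5 without replicate 2 and 4 without replicate 3 of male WT, and to 6 without replicate 1 or 3 of male KO or without the mean-variance trend. The female count fell to 1 without any 1 of the female WT libraries or replicate 1 of female KO, and relative to the mean of the 13 mRNAs 3 passed in males and 0 in females.

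Among transcription factors, Polrmt, the mitochondrial RNA polymerase, rose in male KO, from 22.3 ± 1.74 to 31.4 ± 0.357 TPM (SD, n = 3 each). The log2 fold change, 0.47 (standard error 0.072, limma adjusted p = 0.00433), passed under all 18 alternatives. In females it was 0.14 (limma adjusted p = 0.272), and the interaction (0.33, limma adjusted p = 0.0509) passed in 5 of 23 alternatives. These were median-of-ratios scaling (limma adjusted p = 0.0417), quantile normalization (0.0398), scaling to the genes not encoded on mtDNA (0.0481) and the fits without replicate 2 of male WT (0.0251) or replicate 1 of female WT (0.0368), within a range of 0.0251 to 0.365. Tfam, which packages mtDNA and opens its promoters, had means of 78.4 ± 7.74 (male WT) and 66.6 ± 12.8 TPM (male KO), a log2 fold change of -0.25 (limma adjusted p = 0.270), and at 84.6 ± 5.10 and 77.5 ± 9.17 in females (-0.13, limma adjusted p = 0.401).

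Among genes of RNA processing and decay, Lrpprc, which binds and stabilizes mitochondrial mRNAs, fell in both sexes. It went from 61.7 ± 2.03 to 50.7 ± 2.28 TPM in males (-0.28, limma adjusted p = 0.0121) and from 69.0 ± 1.08 to 57.5 ± 2.16 in females (-0.26, limma adjusted p = 0.0129). The call was lost without replicate 3 of WT in each sex and relative to the mean of the 13 mRNAs. Pnpt1, the mitochondrial polynucleotide phosphorylase, fell in males by 0.50 on the log2 scale (limma adjusted p = 0.00586), and Fastkd3, of the FASTK family of mitochondrial RNA-binding proteins, fell by 0.55 (limma adjusted p = 0.00580), which was lost in 1 fit of all 12 libraries (limma adjusted p = 0.0622, the highest of 18 alternatives, the lowest being 0.00429). Fastkd2, of the same family, rose in females by 0.28 (limma adjusted p = 0.0495), which did not hold without any 1 of the 6 female libraries.

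Among genes of replication and nucleotide supply, Rrm2b, a ribonucleotide reductase subunit, fell by 0.49 on the log2 scale in males (limma adjusted p = 0.0362), and Lig3, the DNA ligase of mitochondria, rose by 0.29 (limma adjusted p = 0.0407). Top1mt, the mitochondrial type I topoisomerase, rose by 0.30 in females (limma adjusted p = 0.0277). None of these 3 calls held without any 1 of the libraries compared. No nuclear regulator (6 tested, among them Nrf1 and Gabpa) passed in either sex. The interaction of sex and genotype passed for 2 of the 68, both with a positive difference in log2 fold change, male less female. Of all genes 6.70% passed with a positive and 6.33% with a negative difference. The count among the 68 ran from 0 to 4 over 23 alternatives. The 2 genes were Top3a (interaction 0.41, limma adjusted p = 0.0450) and Rexo2 (0.18, limma adjusted p = 0.0243). Neither held when single libraries were left out: Top3a was lost without 11 of the 12 and Rexo2 without replicate 1 of male WT, replicate 1 or 3 of male KO, replicate 3 of female WT or replicate 3 of female KO. Between male and female WT cells 1 gene passed (against 6.56% of all genes lower), the pseudouridine synthase Pus1 (-0.19, limma adjusted p = 0.0157). That count was 0 without replicate 1 of male WT or replicate 1 or 2 of female WT, 3 without replicate 2 of male WT, 2 without replicate 3 of female WT, 6 in a fit of all 12 libraries and 0 relative to the mean of the 13 mRNAs. Between male and female KO cells Rexo2 was higher (0.17, limma adjusted p = 0.0209) and Dguok and Grsf1 lower (-0.40 and -0.25, limma adjusted p = 0.0431 and 0.00551), against 8.39% of all genes lower. These 3 calls became 1 without replicate 1 or 3 of male KO or replicate 2 or 3 of female KO, 5 in a fit of all 12 libraries and 0 relative to the mean of the 13 mRNAs. Pus1, Dguok and Grsf1 were named after their values were seen.

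**Figure D5:**
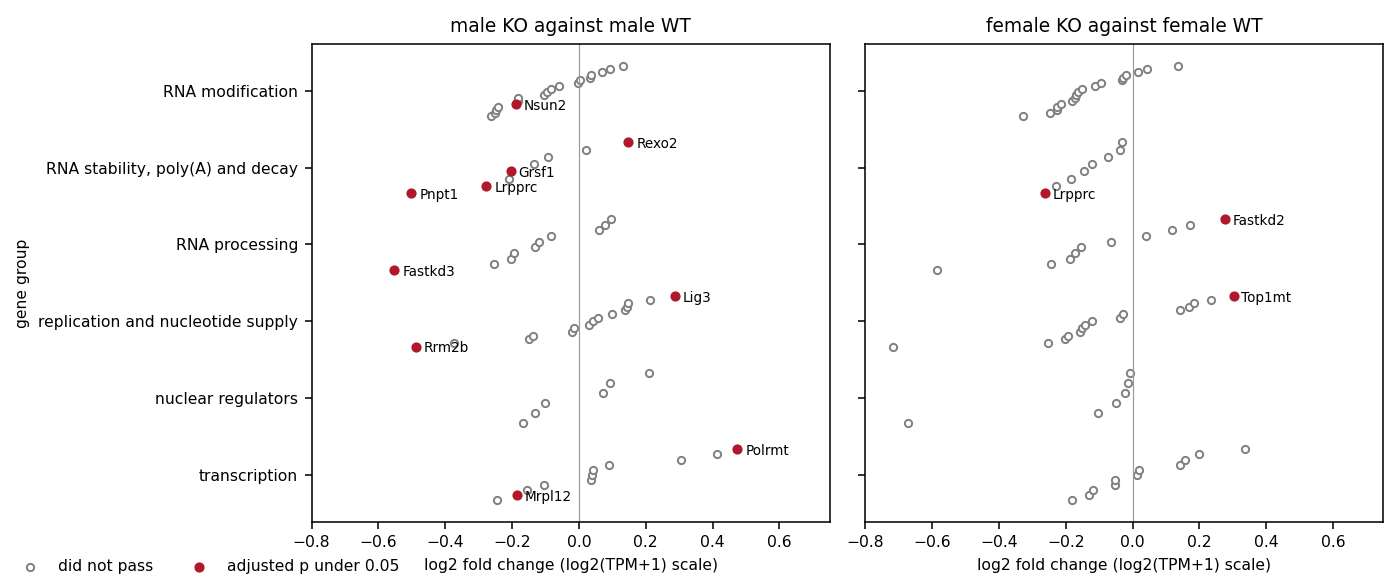
Log2 fold change of KO over WT on the log2(TPM+1) scale (horizontal axis) of 68 nuclear-encoded genes that act on mtDNA and its RNA, by gene group (vertical axis), in males (left) and females (right); filled points passed the limma test and are named, open points did not. In males 3 were higher and 7 lower, in females 2 and 1, and Lrpprc was lower in both.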

How the data were processed

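The authors quantified polyadenylated RNA of 12 cultures with Salmon (1.10.1 and GRCm38 in the submitters' processing notes) and deposited 1 table of TPM, in which 12465 of 34866 genes are at 0 in every library. Reads fitting several transcripts are shared out by Salmon, which bears on mitochondrial genes with nuclear copies. Ensembl identifiers were matched to GENCODE M21 (99.4%). Copies were found by blastn 2.17.0 of GENCODE transcripts against the 13 mRNAs.

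The 12504 genes that averaged 1 TPM or more were tested as log2(TPM+1) by limma 3.58.1 with a mean-variance trend (R 4.3.3) and Benjamini-Hochberg adjustment over all genes; fold changes are on that scale, which understates changes of low genes. Each comparison used its own 6 libraries, and the interaction all 12. Only the limma fit of male KO against male WT was tried on simulated data, drawn as independent normal log2 values. The interaction, the sex comparisons, the permutation tests and the adding of copies were not simulated. Alternatives were a pseudocount of 0.1, no filter, a minimum of 5 TPM, other scalings, no trend, 1 fit for all libraries, a replicate block, added copies and leaving out each library.

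Named were all mt- genes, their near-identical copies, Sirt3, Tfam, Polrmt, Lrpprc and the machinery genes with the 5 largest changes among those that passed in males, females or the interaction. A check list of RNAs without poly(A) tails had no gene in the table. Members and lists were chosen with earlier results of these data known.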

Additional observations from a re-analysis of the deposited data

Results flagged for a closer look

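For 2 of the 68 tested genes of the mtDNA machinery the change with KO passed the test of the interaction of sex and genotype (limma, Benjamini-Hochberg adjusted). Of all genes 13.0% did. The difference in log2 fold change was 0.414 for Top3a, a topoisomerase of nuclei and mitochondria (adjusted p = 0.0450), whose TPM was 10.5 ± 1.22 in male WT, 12.3 ± 0.0633 in male KO, 12.5 ± 0.484 in female WT and 10.8 ± 0.561 in female KO (SD, n = 3 each). It was 0.185 for Rexo2, an oligoribonuclease (adjusted p = 0.0243), with 209 ± 2.49, 232 ± 5.86, 211 ± 5.89 and 205 ± 5.66 TPM in the same order. The call of Top3a was lost in 14 of 23 alternatives and that of Rexo2 in 8.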

How the results depend on the processing

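The count of mRNAs that passed in male KO against male WT was 2; it was 0 without a filter on low values, 0 without the mean-variance trend, 1 relative to the mean of the 13 mRNAs and 0 to 2 without single libraries, and 2 under the other settings, added copies included. It was 0 in females under all 18 alternatives. It was 0 to 1 for the interaction and 0 to 4 for male against female KO without single libraries, and 1 for male against female WT with quantile normalization (mt-Cytb). Most of the 1235 recomputed changes of the 13 were of changes that had not passed, since only mt-Co3 and mt-Atp8 in males had. Of the 1235, 1084 kept their sign and call, and 131 that had not passed turned their sign. Another 13 lost a call and 7 gained one, and 0 that passed turned their sign.

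Replicate numbers are in the labels but are not said to pair cultures, and the deviations of same-numbered libraries correlated between -0.057 and 0.078. With replicate number as a block, 2 of 13 passed in males and 0 in each other comparison, and 7 machinery genes passed in males and 0 in females, where 18.9% and 5.36% of all genes did. The calls of Rrm2b, Lig3, Top1mt, Fastkd2 and Pus1, and that of Lrpprc in females, were lost with the block. The block also took the count of nuclear-encoded subunits from 6 to 1 in females, from 8 to 4 between the sexes in WT and from 7 to 2 in KO, and that of machinery genes between the sexes in KO from 3 to 1.

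Of 290 recomputed sums and ratios, 29 turned the sign of a difference that had not passed. For KO against WT, the complex I sum became 0.012 with median-of-ratios scaling and 0.0059 with copies added (0.0058 by length), the complex V sum 0.028 (0.028), the complex III ratio 0.00077 as a mean of logs, the complex IV ratio -0.011 with copies by length and the complex V ratio 0.031 (0.031). For male against female, the complex V sum became -0.061 (-0.060) and its ratio -0.12 (-0.12) with copies added. Without single libraries, the sums for KO against WT ran from -0.046 to 0.018 (complex I), -0.024 to 0.029 (III) and -0.049 to 0.0019 (V), and the ratios from -0.062 to 0.0085 (III) and -0.059 to 0.0021 (V). For male against female, the complex III sum ran from -0.18 to -0.13, and the ratios from -0.23 to -0.16 (I), -0.24 to -0.17 (III) and -0.015 to 0.045 (V). The causes were not tested. Adding copies by length was chosen after seeing the data, as were the alternatives for the machinery and nuclear-encoded genes. TPM give no read totals, so counting error could not be separated from the spread between cultures.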
